A study of Homo sapiens with 4 samples.

Results

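The genes examined here were 10 regulators of the G1 phase of the cell cycle: the D-type cyclins CCND1, CCND2 and CCND3, their kinases CDK4 and CDK6, the kinase inhibitors CDKN1A, CDKN1B, CDKN2A and CDKN2B, and the retinoblastoma gene RB1. The list was taken by gene name, and all 10 were found among the 20162 protein-coding genes of the annotation. FOXC1, a transcription factor of the forkhead family, was mapped by ChIP-seq in J82, an established human bladder cancer cell line cultured in DMEM with fetal bovine serum. Antibody D8A6 against FOXC1 was used for 2 ChIP libraries, and 2 input libraries had none. The labels give no treatment, sort or genotype for these cells, so the replicates are 1 group with no contrast between conditions. A peak, a place where ChIP reads pile up above background, was assigned to a gene when its summit lay in the gene body or within 50 kb of it, an interval called the window of the gene.

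D-type cyclins bind CDK4 or CDK6 and switch the kinase on during G1. The active complex phosphorylates the RB1 protein, which then lets go of the E2F factors that drive entry into S phase. CDKN2A and CDKN2B, of the INK4 family, bind CDK4 and CDK6 and block cyclin binding, while CDKN1A and CDKN1B bind whole cyclin and kinase complexes. Loss of CDKN2A or RB1 and gain of CCND1 are recurrent in bladder cancer.

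The lists held 22405 peaks in replicate 1 and 41789 in replicate 2, made from about 43.2 M and 41.5 M ChIP reads. The median peak had 18 reads over its summit in replicate 1 and 23 in replicate 2, and reads are given below with exact 95% Poisson intervals, which cover counting error only. Peaks of the replicates that overlapped by at least 1 bp were joined into 13238 shared regions. The antibody label was set beside sequence content, which cannot tell FOXC1 from other forkhead factors because the family shares a similar motif. A forkhead word, defined with the sequences further on, lay within 50 bp of 48.7% of all shared summits (Wilson interval 47.8 to 49.5%), and in 10.8% of windows 500 bp downstream. A peak's height in a bulk culture cannot tell more bound cells from more binding per cell.

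FOXC1 peaks were found near all 10 regulators in replicate 2 and near 9 in replicate 1, and 9 of 10 had a shared region, CCND2 being the exception. Of all protein-coding genes, 80.1% had a replicate 2 peak in the same kind of window, 62.7% a replicate 1 peak and 46.6% a shared region. Windows had a median length of 132 kb for the 10 genes and 127 kb for all protein-coding genes. The 10 windows, joined where they overlapped, covered 1.69 Mb and held 23 peaks of replicate 1, 51 of replicate 2 and 18 shared regions. CDK6 alone held 8 of these 18 regions, CCND3 and CDKN1B held 2 each, and CCND1, CDK4, CDKN1A, CDKN2A, CDKN2B and RB1 held 1 each. The single regions of CCND1 and CDK4 had a −log10 q of only 1.07 and 0.957 in replicate 1, and 1.35 and 12.8 in replicate 2. The weaker region of CCND3 was lower still in replicate 1, at 0.223, with 3.63 in replicate 2. The weaker region of CDKN1B had 1.24 and 4.77, and the single region of CDKN2B 1.65 and 9.63. Strength was uneven between the genes. At a −log10 q of at least 5 in both replicates 2 of 10 genes, CDK6 and RB1, had a shared region, as did 29.3% of all protein-coding genes. These were 7 of the 18 regions (38.9%, Wilson interval 20.3 to 61.4%), an interval that holds the 50.8% of all shared regions. At a fold enrichment of at least 5 in both replicates it was again 2 of 10 genes, the same pair, and 20.1% of all protein-coding genes. The map of summits along each gene shows this distribution.

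**Figure D1:**
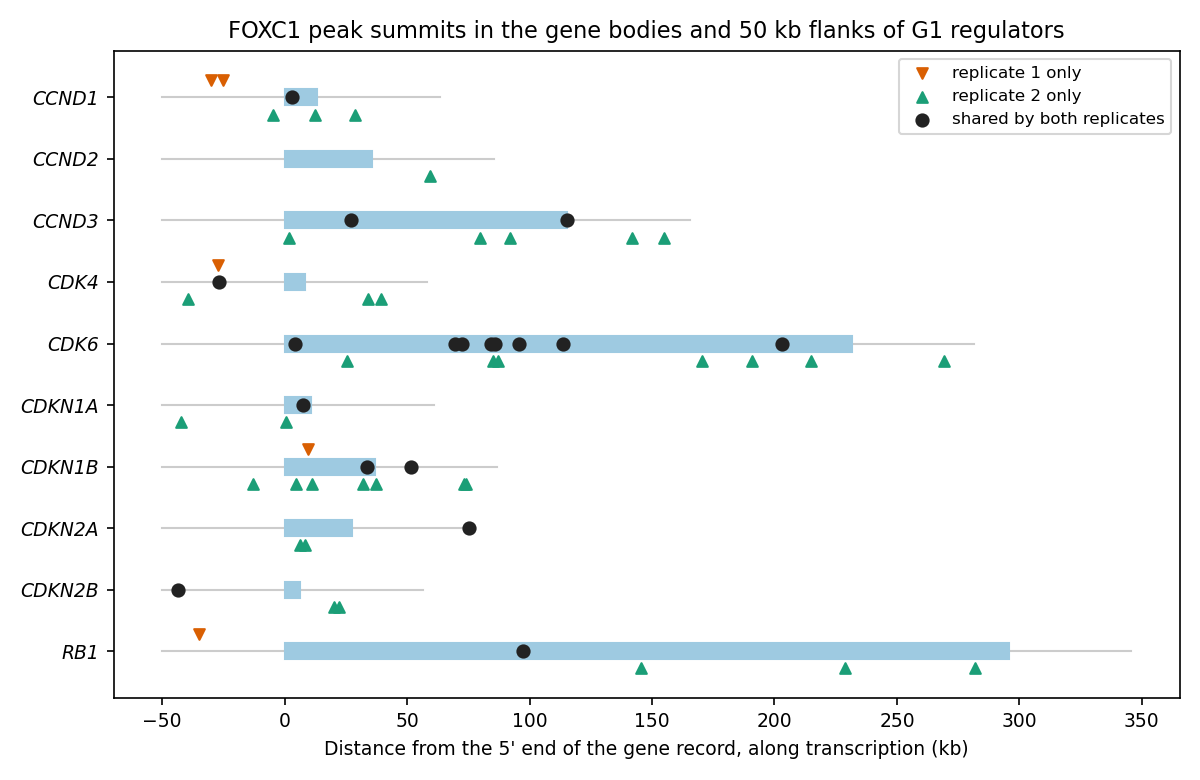
Summits of FOXC1 peaks in the window of each gene, by distance from the 5′ end of the gene record in kb along the direction of transcription. Blue bars are gene bodies and grey lines the 50 kb flanks. Black circles are shared regions, downward triangles peaks of replicate 1 only and upward triangles peaks of replicate 2 only. CDK6 carries 8 of the 18 shared regions, all inside the gene.

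Shared regions numbered 10.7 per Mb over the joined windows (Poisson interval 6.32 to 16.8), compared with 5.21 per Mb over the joined windows of all protein-coding genes. Without CDK6, the other 9 genes held 10 regions in 1.36 Mb, or 7.37 per Mb, a value for which no interval was computed. By gene, CDK6 came first at 24.1 per Mb (10.4 to 47.5), then CDKN1B at 14.6 (1.77 to 52.8). CDKN2B, CCND3, CDK4, CDKN1A, CCND1 and CDKN2A followed in this order, between 9.40 and 7.84, and the lowest were RB1 at 2.53 (0.0640 to 14.1) and CCND2 at 0 (up to 27.2). Neighbours in this order did not differ beyond counting error, as all of these intervals overlap their neighbours. The interval of CDK6 was the only one that lay wholly above the protein-coding value, and 2.69% of protein-coding genes had a higher density than CDK6. No test was made, since the genes were chosen with results of these data known.

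**Figure D2:**
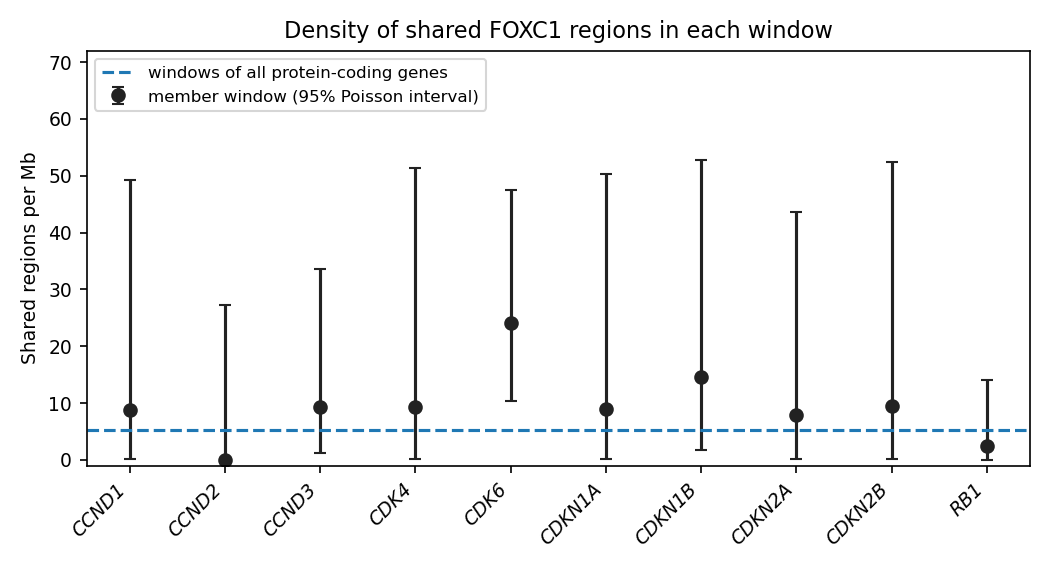
Shared FOXC1 regions per Mb of window for each gene (points) with exact 95% Poisson intervals (bars). The dashed line is the value over the joined windows of all protein-coding genes, 5.21 per Mb. Only the interval of CDK6, from 10.4 to 47.5, lies above that line.

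CDK6, the kinase partner of D-type cyclins, was the most densely and strongly occupied of the 10 genes. Its gene body lies at chr7:92234235-92465887 on the minus strand (hg19), and all 8 shared summits were in its introns: 1 in intron 2, 5 in intron 3, 1 in intron 4 and 1 in intron 5 of the canonical transcript. They are numbered here from the start of the gene. The sequence 50 bp to either side of each summit is shown because these 8 regions include the strongest binding near the 10 genes and every AP-1 match at their shared summits. All are plus-strand bases of hg19, and capitals mark matches on either strand. The forkhead words searched were ATAAACA and the form ATAAATA, together with GTAAACA and the form GTAAATA. The AP-1 word was TGACTCA, whose reverse complement is TGAGTCA, and no AP-1 match shared a base with a forkhead match in these windows. Regions 2, 3 and 5 to 8 are shown in addition to the strongest after their values had been seen.
CDK6 region 1, chr7:92461459-92461559: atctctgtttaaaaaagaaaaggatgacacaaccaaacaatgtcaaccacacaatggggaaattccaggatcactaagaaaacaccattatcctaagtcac
CDK6 region 2, chr7:92396155-92396255: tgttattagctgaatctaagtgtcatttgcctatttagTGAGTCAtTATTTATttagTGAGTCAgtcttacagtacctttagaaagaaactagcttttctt
CDK6 region 3, chr7:92393250-92393350: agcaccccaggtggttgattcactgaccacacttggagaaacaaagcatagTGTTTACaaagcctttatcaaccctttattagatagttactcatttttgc
CDK6 region 4, chr7:92381661-92381761: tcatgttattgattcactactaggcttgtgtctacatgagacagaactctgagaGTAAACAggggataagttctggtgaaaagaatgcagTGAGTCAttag
CDK6 region 5, chr7:92379854-92379954: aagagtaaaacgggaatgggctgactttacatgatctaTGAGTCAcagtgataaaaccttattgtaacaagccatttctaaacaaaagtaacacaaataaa
CDK6 region 6, chr7:92370278-92370378: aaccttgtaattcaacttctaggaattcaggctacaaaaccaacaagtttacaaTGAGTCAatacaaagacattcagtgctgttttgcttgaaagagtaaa
CDK6 region 7, chr7:92352084-92352184: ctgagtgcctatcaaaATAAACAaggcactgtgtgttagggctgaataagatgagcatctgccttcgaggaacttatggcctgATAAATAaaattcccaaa
CDK6 region 8, chr7:92262847-92262947: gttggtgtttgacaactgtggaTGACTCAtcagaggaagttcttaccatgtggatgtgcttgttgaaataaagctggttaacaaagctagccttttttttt

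The strongest region near any of the 10 genes was CDK6 region 4, chr7:92381356-92382365, in intron 3 and 84.2 kb into the gene. It had a fold enrichment, the ratio of ChIP pileup to local background, of 14.2 in replicate 1 and 26.6 in replicate 2 (mean 20.4 ± 8.78, SD, n = 2). Reads over the summit numbered 83 (interval 66.1 to 103) and 162 (138 to 189). The region ranked 598 of 13238 shared regions by mean fold enrichment, and the summits of the replicates lay 10 bp apart. A GTAAACA began 4 bp downstream of the summit and a TGAGTCA lay near the edge of its window, with its centre at 43 bp.

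CDK6 region 2, chr7:92395856-92396557, lay in the same intron, 69.7 kb into the gene. Its fold enrichment was 8.67 in replicate 1 and 25.5 in replicate 2 (mean 17.1 ± 11.9, SD, n = 2), with 70 and 143 reads. Its summit fell on an ATAAATA on the minus strand, centred 1 bp from it. This forkhead word stood between 2 copies of TGAGTCA, centred 9 bp before and 10 bp after the summit.

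Regions 1, 3 and 7 were the others at an irreproducible discovery rate (IDR) of 0.05 or less, a measure of how far the ranks of a region match between replicates. Region 1, chr7:92461070-92461866, in intron 2 and 1.72 kb from the start of a CDK6 transcript, had fold enrichments of 4.11 and 11.9 with 40 and 117 reads. It was the only CDK6 region without a forkhead or AP-1 match within 50 bp. Its local background was the highest of the 18 regions in replicate 1, at 2.16 times the genome-wide minimum, and in replicate 2 it was 2.13 times, as at the second CDKN1B region; its part in the result was not tested. Region 3, chr7:92392959-92393529, had fold enrichments of 5.62 and 12.4 and a GTAAACA centred 4 bp from its summit on the minus strand. Region 7, chr7:92351933-92352400 in intron 4, had 5.03 and 5.55 and held 2 forkhead words.

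The remaining CDK6 regions were weaker and each carried an AP-1 word but no forkhead word. Region 5 (chr7:92379689-92380147) had fold enrichments of 3.42 and 5.44, region 6 (chr7:92370057-92370607) of 4.07 and 5.03, and region 8 (chr7:92262724-92263138) of 3.11 and 6.53. Their IDR was 0.0930, 0.164 and 0.108. Of these, region 6 reached a −log10 q of 5 in both replicates, at 6.51 and 11.4. The 5 regions of intron 3 lay within 25.9 kb, with gaps from 1.81 to 11.6 kb between neighbouring summits.

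In replicate 2, 7 further peaks in the CDK6 window had no partner in replicate 1, and 6 of them lay in the gene. They had 13 to 31 reads. At a −log10 q of at least 5, there were 2: one in intron 5 over an exon of the noncoding gene ENSG00000286742, with a fold enrichment of 3.67, and one downstream of CDK6 in an intron of FAM133B, with 5.29. The plot of reads across CDK6 sets these beside the shared summits.

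**Figure D3:**
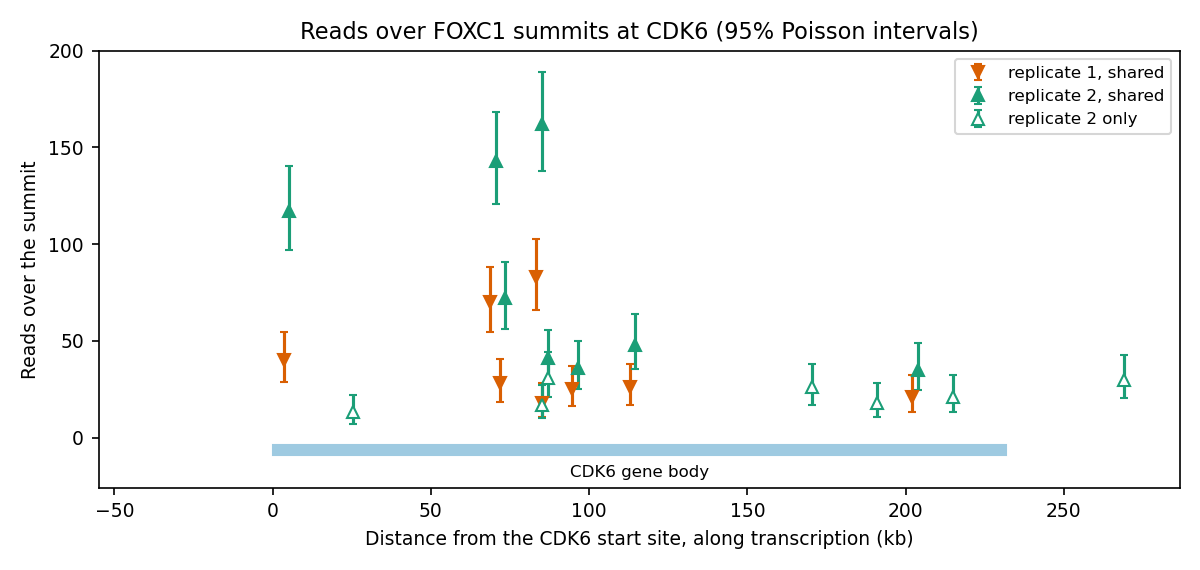
Reads over FOXC1 summits in the CDK6 window, by distance from the CDK6 start site in kb along transcription. Filled downward and upward triangles are replicates 1 and 2 of the 8 shared regions, drawn slightly apart, and open triangles are peaks of replicate 2 only; bars are exact 95% Poisson intervals. Regions 2 and 4 reach 143 and 162 reads in replicate 2, and the unpaired peaks stay at 31 or below.

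CDK4, the other D-cyclin kinase (chr12:58141510-58149796, minus strand), had no peak summit of either replicate in its gene body. The single shared region of its window, chr12:58176289-58176792, lay 26.7 kb from the gene body on the upstream side, and its summit was 2 bp from a start site of TSFM, which encodes a mitochondrial translation factor. Its fold enrichment was 2.63 in replicate 1 and 6.11 in replicate 2 (mean 4.37 ± 2.46, SD, n = 2), with 13 and 31 reads, and an ATAAACA on the minus strand was centred 26 bp from the summit. The −log10 q of this region was 0.957 in replicate 1 and 12.8 in replicate 2. The strongest peak of the window was in replicate 2 only, chr12:58189123-58189622 in an intron of TSFM, with a fold enrichment of 8.16, 44 reads (interval 31.97 to 59.07) and an AP-1 word.

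Among the D-type cyclins, which are the regulatory subunits of these kinases, the shared regions were weak. CCND1 (chr11:69455924-69469242, plus strand) had 1, chr11:69458774-69459233 in intron 3, with fold enrichments of 2.71 and 2.87 and 13 and 14 reads. Its summit was 512 bp from the start of a CCND1 transcript and 3.07 kb from the canonical start, the summits of the replicates were 232 bp apart, and no forkhead or AP-1 word was present. Its other peaks, 2 of replicate 1 upstream and 3 of replicate 2, had 14 to 18 reads and no partner.

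CCND3 (chr6:41902672-42018095, minus strand) had 2 shared regions. The stronger, chr6:41990743-41991131, lay in an intron of the longer transcripts, upstream of the canonical start, with fold enrichments of 3.49 and 4.20 and a GTAAACA 46 bp from the summit. The other, chr6:41902538-41902978, lay in untranslated sequence of the last exon, exon 5, with 2.06 and 3.63. Replicate 2 alone also listed a peak 52 bp from the start of a CCND3 transcript, with 19 reads and a −log10 q of 4.27, and one of 5.44-fold enrichment 282 bp from a start of the neighbour USP49. CCND2 (chr12:4378937-4414519, plus strand) had no replicate 1 peak and no shared region in its window, which allows a count of up to 27.2 per Mb. Its single replicate 2 peak lay 23.6 kb beyond the gene in an intron of TIGAR, with a fold enrichment of 3.33 and 21 reads.

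The sequences around the strongest summit of CCND1, CCND3, CDKN1A, CDKN2A, CDKN2B and RB1 follow, in the same form, to set their words beside those of CDK6. The windows of CDK4 and CDKN1B touched untranslated exons and are not shown.
CCND1, chr11:69458942-69459042: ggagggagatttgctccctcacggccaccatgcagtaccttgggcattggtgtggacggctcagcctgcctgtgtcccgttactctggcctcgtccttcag
CCND3 region 1, chr6:41990925-41991025: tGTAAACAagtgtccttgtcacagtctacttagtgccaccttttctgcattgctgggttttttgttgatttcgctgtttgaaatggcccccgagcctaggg
CDKN1A, chr6:36651562-36651662: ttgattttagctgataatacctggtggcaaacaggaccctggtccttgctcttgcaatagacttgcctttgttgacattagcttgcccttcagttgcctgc
CDKN2A, chr9:21919841-21919941: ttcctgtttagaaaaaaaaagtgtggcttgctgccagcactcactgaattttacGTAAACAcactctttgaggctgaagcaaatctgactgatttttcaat
CDKN2B, chr9:22052663-22052763: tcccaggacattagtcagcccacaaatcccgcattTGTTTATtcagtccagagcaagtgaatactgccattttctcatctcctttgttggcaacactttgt
RB1, chr13:48975007-48975107: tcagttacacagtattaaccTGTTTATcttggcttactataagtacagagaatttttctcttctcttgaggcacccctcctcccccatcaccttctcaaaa

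CDKN1A, the inhibitor that p53 induces after DNA damage (chr6:36644237-36655114, plus strand), held 1 shared region in its intron 1, chr6:36651406-36651860, 5.12 kb from the canonical start. Its fold enrichment was 3.87 in replicate 1 and 5.73 in replicate 2 (mean 4.80 ± 1.31, SD, n = 2), with 19 and 29 reads whose intervals overlapped. It had no forkhead or AP-1 word within 50 bp. A replicate 2 peak with 19 reads, a −log10 q of 4.27 and a forkhead word lay 510 bp from another CDKN1A start site.

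CDKN1B, which restrains the cyclin E and CDK2 complex (chr12:12838432-12875303, plus strand), had the most replicate 2 peaks after CDK6, at 9, against 3 in replicate 1. The shared region in the gene, chr12:12871686-12872144, had its summit in the coding part of exon 2, 1.55 kb from the canonical start, with fold enrichments of 3.15 and 4.56, 17 and 23 reads and a GTAAACA 28 bp away. The second, chr12:12889964-12890413, lay 14.8 kb past the gene in an intron of APOLD1, with 2.73 and 3.12 and an ATAAACA centred 4 bp from the summit. Of the peaks in replicate 2 only, 2 passed a −log10 q of 5. One, with 30 reads and a forkhead word, lay 352 bp from an upstream CDKN1B start site and 20.7 kb before the canonical start. The other, with 29 reads and an AP-1 word, lay in an intron of GPR19. It was 13015 bp upstream of the gene body and 44.9 kb before the canonical start. Another replicate 2 peak, with 18 reads, lay 80 bp from a start site in exon 1.

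CDKN2A, which encodes an INK4 inhibitor and the unrelated ARF protein, and its neighbour CDKN2B share most of their windows on chromosome 9 (chr9:21967751-21995300 and chr9:22002902-22009304, both minus strand). No shared region lay in either gene body. The region counted for CDKN2A, chr9:21919529-21920087, lay 47.9 kb past the gene in an intron of MTAP, which encodes a methionine salvage enzyme, with fold enrichments of 2.79 and 4.62. The region counted for CDKN2B, chr9:22052371-22052952, lay 43.4 kb upstream in an intron of the noncoding gene CDKN2B-AS1, with 2.72 and 4.78. Each had a forkhead word at the summit, centred 7 and 12 bp away, and each also had one in its control window 500 bp downstream. In CDKN2A itself, replicate 2 listed 2 intronic peaks of 24 and 25 reads, which fall in both windows, and replicate 1 listed none.

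RB1, the substrate of the kinases (chr13:48877880-49173572, plus strand), held the shared region with the highest mean fold enrichment outside CDK6, although in replicate 2 alone the region counted for CDK4 was higher, at 6.11. The region, chr13:48974586-48975462, lay 97.2 kb into the gene in intron 17, where the gene LPAR6 also lies. Its fold enrichment was 5.62 in replicate 1 and 5.75 in replicate 2 (mean 5.68 ± 0.0936, SD, n = 2), with 28 and 31 reads, and this SD was the smallest of the 18 regions. Its −log10 q was 11.2 and 11.97, and its IDR was 0.318. An ATAAACA on the minus strand was centred 27 bp from the summit. In the same intron, a peak of replicate 2 only, chr13:49022966-49023482, had a fold enrichment of 7.06, 36 reads and a −log10 q of 16.4.

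Across the 18 regions, median fold enrichment was 3.45 for replicate 1 and 5.49 for replicate 2 (mean of the medians 4.47 ± 1.44, SD, n = 2), and over all shared regions 3.79 and 6.71. It was higher in replicate 2 in 18 of 18, and in 91.9% of all shared regions. Per region, the replicate 2 value was a median of 1.62 times the replicate 1 value, and 1.69 times over all. The read intervals of the replicates overlapped in 13 of the 18 regions, and the share over all shared regions was not computed. Outside CDK6, all 10 regions had overlapping intervals, with 13 to 28 reads in replicate 1 and 14 to 33 in replicate 2. Intervals are wide at such counts, so their overlap alone does not show that the replicates match. By mean fold enrichment, 5 of the 8 CDK6 regions were above the median of all shared regions, and 1 of the other 10, that of RB1.

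**Figure D4:**
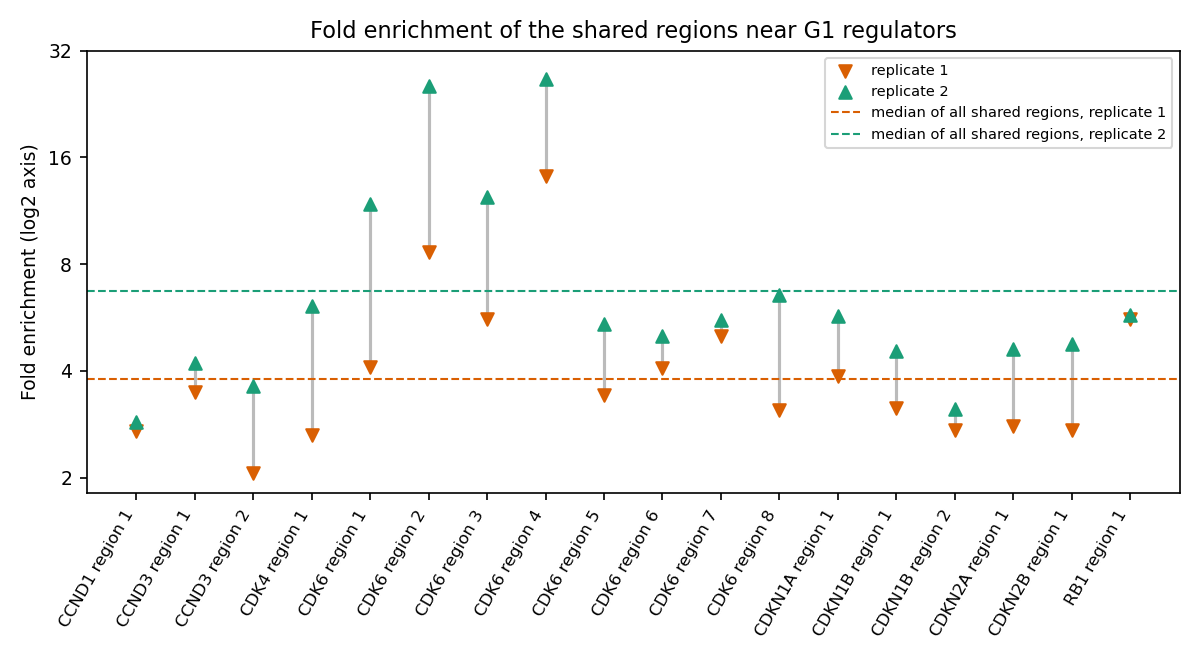
Fold enrichment on a log2 axis of the 18 shared regions, in replicate 1 (downward triangles) and replicate 2 (upward triangles), joined by a line for each region. Dashed lines are the medians of all shared regions in each replicate, 3.79 and 6.71. CDK6 regions 1 to 4 are the ones above both lines in their replicate, and replicate 2 is higher in all 18 regions.

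Reproducible regions by IDR were found near CDK6 alone: 5 of the 18 (27.8%, Wilson interval 12.5 to 50.9%), against 45.2% of all shared regions. By gene, 1 of 10 had such a region, and 26.8% of all protein-coding genes did. Of the 23 replicate 1 peaks, 18 were overlapped by a replicate 2 peak (78.3%, 58.1 to 90.3%), compared with 59.6% of the whole list. Of the 51 replicate 2 peaks, 18 were overlapped by a replicate 1 peak (35.3%, 23.6 to 49.0%), compared with 31.7%. The 5 unpaired replicate 1 peaks had 12 to 15 reads, and none reached a −log10 q of 5. Among the 33 unpaired replicate 2 peaks, 7 did, with up to 44 reads. Of all listed peaks, paired or not, 69.2% in replicate 1 and 56.7% in replicate 2 were below this limit. The share over all unpaired peaks was not computed.

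Peaks at the genes' own start sites were limited to a part of the list. With the start of any annotated transcript counted, a shared region lay within 2 kb of an own start site in CCND1, CDK6 and CDKN1B. These were 3 of 10 genes, beside 8.64% of all protein-coding genes. From the canonical starts, the 3 regions lay 3.07, 4.38 and 1.55 kb away. In replicates 1 and 2 their −log10 q was 1.07 and 1.35 at CCND1, 10.7 and 73.9 at CDK6, and 2.54 and 6.30 at CDKN1B. A replicate 2 peak lay within 2 kb of an own start site in 5 of 10, these 3 genes with CCND3 and CDKN1A, and in 25.4% of all. No peak of either replicate lay within 2 kb of a start site of CCND2, CDK4, CDKN2A, CDKN2B or RB1. With the region at TSFM, 4 of the 18 summits were within 2 kb of any start site (22.2%, interval 9.001 to 45.2%), a share whose interval holds the 20.0% of all shared regions. The share was 11.1% within 1 kb and 44.4% within 5 kb. In all, 16 of the 18 summits lay in introns, counting those of neighbouring genes, and 14 lay in a gene body of the list. Windows drawn around gene bodies favour introns, and the share over all shared regions was not computed.

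Near the G1 regulators, 11 of 18 summits had a forkhead word within 50 bp (61.1%, 38.6 to 79.7%), as did 2 of 18 windows placed 500 bp downstream (11.1%, 3.10 to 32.8%). The interval holds the 48.7% of all shared regions. An AP-1 word, the binding sequence of FOS and JUN dimers, lay at 5 of 18 (27.8%, 12.5 to 50.9%) and in none of the windows downstream, and at 16.6% of all shared regions and 1.93% of their downstream windows. All 5 summits with an AP-1 word were in CDK6, where 4 of 8 summits had a forkhead word, 5 an AP-1 word and 2 both. Outside CDK6, 7 of 10 summits had a forkhead word and 0 of 10 an AP-1 word. Of the 33 unpaired replicate 2 peaks, 3 had an AP-1 word, near CDK4, CDKN1B and CDKN2A. The share over all unpaired peaks was not computed. These matches describe the letters in the windows, and binding of AP-1 was not measured. The forkhead share was 33.3% within 25 bp of the summit and 27.8% for GTAAACA alone.

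**Figure D5:**
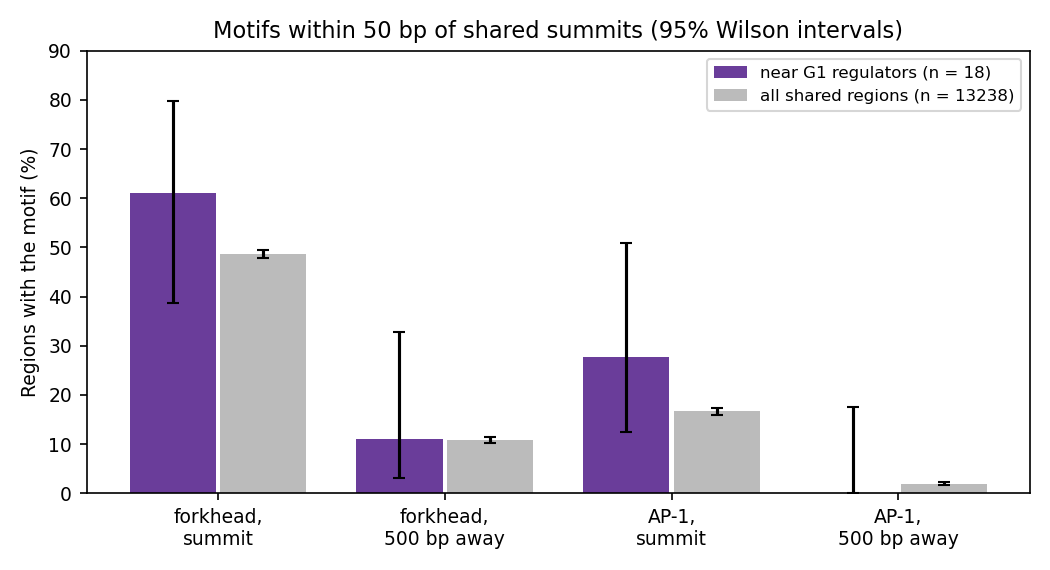
Percentage of shared regions with a forkhead or an AP-1 word within 50 bp of the summit, and within 50 bp of a position 500 bp downstream, for the 18 regions near the G1 regulators and for all 13238 shared regions. Bars are percentages and whiskers 95% Wilson intervals. For both words the summit share is above the downstream share in both sets, 61.1% against 11.1% and 27.8% against 0% near the G1 regulators.

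The other genes of the pathway, 17 in all, were CCNE1, CDK2, CDC25A, CDKN1C, CDKN2C, CDKN2D, RBL1, RBL2, E2F1, E2F2, E2F3, E2F4, TFDP1, TFDP2, SKP2, CKS1B and FBXW7. A shared region was found near 7 of 17, a replicate 1 peak near 13 and a replicate 2 peak near 15. The shares of all protein-coding genes were 46.6%, 62.7% and 80.1%. The joined windows of the 17 genes held 14 shared regions, or 5.41 per Mb (2.96 to 9.08). That interval holds the 5.21 per Mb of all protein-coding genes. E2F3, a transcription factor released by RB1, had 4 shared regions with fold enrichments of up to 15.9 in replicate 1 and 46.0 in replicate 2. TFDP2, a dimer partner of E2F factors, had 4, with 3.70 and 6.35 at the strongest. E2F1 had 2, at 2.33 and 4.91, and E2F2 had 1, at 23.0003 and 26.005. CDK2, the kinase partner of cyclin E, and CDC25A, a phosphatase that activates it, had no peak in either replicate.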

How the data were processed

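Peak lists of the 2 FOXC1 ChIP replicates were analysed, 1 per library; the input libraries were not analysed here. According to the study's methods and the submitters' processing notes, BWA placed the single-end reads of 75 bp on hg19, MACS2 2.2.7.1 compared each ChIP with input, and an IDR tool selected reproducible peaks. Per the file format, the authors deposited for each peak a fold enrichment (a ratio of ChIP pileup to local background, 1 added to each), a −log10 p and a −log10 q of the summit, and a score equal to 10 times the −log10 p, truncated. The filter behind the lists is not given in the sources used here. The smallest −log10 p was 2.00 in replicate 1 and 2.02 in replicate 2. Among all shared regions, −log10 q went down to 0 in replicate 1 and 0.0789 in replicate 2, so listed peaks need not pass a q limit.

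Reads over each summit and the local background were solved from the deposited fold enrichment and −log10 p (residual under 0.001), which succeeded for 100% of peaks in both replicates. Total reads rest on the 2.7 Gb genome size of MACS2 and on the smallest peak widths, 260 and 270 bp, taken as fragment lengths. Summits were column 2 plus column 10, and peaks outside chromosomes 1 to 22, X and Y were dropped. The annotation was GENCODE release 44 lifted to GRCh37, which has the coordinates of hg19. Shared regions took the strongest peak of each replicate and the midpoint of their summits. IDR was fitted with code written here as a copula mixture over 13238 regions, so it need not equal the authors' set; 5984 were at 0.05 or less. Read recovery, IDR and overlap were tested on simulated data. Python 3.11.15, pandas 2.3.3, scipy 1.17.1 and pysam 0.24.0 were used.

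The members, the pathway list and the tests were chosen with earlier results of these data known. With 1 group, no test between groups was made and no p-value is given; counts carry exact Poisson and shares Wilson 95% intervals. Regions described in full were the strongest of each window, those within 2 kb of an own start site, those at a −log10 q of at least 5 in both replicates and unpaired peaks at that limit. Alternatives changed the window, the assignment, the peak threshold, the overlap, the promoter distance, the motif and the IDR limit.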

Additional observations from a re-analysis of the deposited data

How the results depend on the processing

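In all, 75 recomputed values were set beside the main ones; 49 stayed within 1.5 times a count, within the interval of a share or density or within 1 SD of the median, and 26 moved. Assigning peaks by any overlap with the window changed nothing. Gene bodies alone gave 17.9 shared regions per Mb, 15 replicate 1 peaks and 33 replicate 2 peaks. Gene bodies with flanks of 100 kb gave 32 shared regions, 42 and 91 peaks and 11 reproducible regions. At a −log10 q of at least 5, 2 genes had a shared region, with 7 regions (50.8% of all shared regions met this limit in both replicates), 4.14 per Mb, 7 and 21 peaks and a median fold enrichment of 8.74. At a fold enrichment of at least 5, 2 genes did, with 5 regions, 2.96 per Mb, 5 and 17 peaks and a median of 8.99. On these 5 regions, of CDK6 and RB1, the promoter share was 0% (Wilson interval 0 to 43.4%). The forkhead share was 100% (56.6 to 100%), and neither share was computed over all shared regions at this limit. The forkhead share was 33.3% within 25 bp and 27.8% for GTAAACA alone. With the peaks of a single replicate in place of shared regions, counts ran from 23 to 51, densities from 13.6 to 30.2 per Mb, genes from 9 to 10, median fold enrichments from 3.11 to 3.63, promoter shares from 26.1 to 27.5% and forkhead shares from 30.4 to 45.1%. Stricter overlap rules left 17 regions near 8 genes, without that of CCND1 where its summits 232 bp apart exceeded 100 bp. No paired analysis was possible because no result came from a test. Low counts limit what the weak regions can show. Outside CDK6 the replicates had 13 to 33 reads over a summit, too few to tell small differences from counting error.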
